A study of Mus musculus with 36 samples.

Results

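Exon usage was compared between mice given diazepam (DZP) and mice given the vehicle (Ctrl), over the cortex, hippocampus, and amygdala together. The array reads each exon, or part of an exon or intron, with a probe selection region (PSR) and many exon-exon junctions with a junction probe set. For every probe set with a single gene symbol, the mean of all PSRs of its gene on the same array was subtracted, and the remainder is the splicing index. A probe set entered when its gene had 5 or more PSRs and a gene mean of at least 8 (log2 signal), which left 254762 of the 725678 probe sets on the array. These were 146572 PSRs and 108190 junctions, and they belonged to 6822 of the 31366 genes with at least 1 PSR. Another 18694 probe sets carried several gene symbols and 120210 carried none, and 11379 genes with 5 or more PSRs had a mean under 8.

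The samples were 18 exon-level arrays, 3 for each treatment in each region, so that 9 DZP arrays were set against 9 Ctrl arrays. All mice were male C57BL/6, 8 weeks old, and no transgene or deletion is named for either group. DZP, a benzodiazepine that makes GABA-A receptors respond more strongly to GABA, was injected intraperitoneally 2 times a day for 10 days, and Ctrl mice received the fat emulsion Intralipid in the same way. The labels give DZP at 5 mg/ml, while the study's methods give the dose per kg of body weight. Both groups were anaesthetised before sampling with a mixture that contained midazolam, itself a benzodiazepine, and tissue was punched from brain slices. The 9 arrays of a treatment came from 3 mice, so the regions share animals, and the labels do not say which arrays do. The fits treat the arrays as independent and make no allowance for shared mice, so the p-values over regions may be too small. Fewer cells of a type and less RNA per cell cannot be told apart in such bulk tissue.

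Most genes of the brain give several mRNAs, because exons are skipped or included, splice sites are chosen within exons, and transcripts start or end at different places. In neurons, families of RNA-binding proteins such as Rbfox, Nova, Celf, and the SR proteins set these choices, and neuronal activity can shift them, as for Homer1, which yields a short form that ends early. A splicing index that is higher in one group says that a probe set is brighter relative to its own gene, whatever the level of the gene. The index also moves when a dim probe set stays near the background while its gene moves, so probe sets with a mean signal of at least 8 (bright, 180591) and under 8 (dim, 74171) were kept apart.

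Array medians lay between 6.90 and 6.94 (log2), and the means of 23 antigenomic background probe sets lay between 4 and 4.16. The mean index of the 108190 junctions was −0.459 in DZP hippocampus array 1 and −0.453 in array 2, against −0.365 in DZP hippocampus array 3 and −0.343 to −0.361 in the Ctrl hippocampus arrays. These 2 DZP hippocampus arrays also stood apart on the first principal component of the index, at 71.0 and 124.6, where the other 4 hippocampus arrays lay between −28.2 and −40.0. On both measures they lay within the range of the amygdala arrays, −0.406 to −0.469 and 58 to 155.5. On the third component they lay at 94.8 and 134.6, apart from the amygdala arrays at −66 to −1.5. Results that rest on DZP hippocampus arrays 1 and 2 are given with and without them, except for test counts within hippocampus and of the interaction. Without them only array 3 is left for DZP hippocampus, and a difference that rests on 1 array is less precise.

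**Figure D1:**
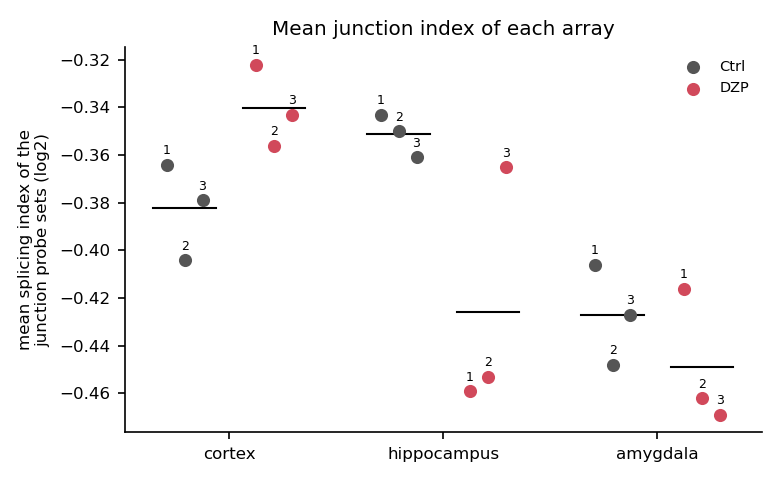
Mean splicing index of all junction probe sets (log2, y axis) on each of the 18 arrays, by region and treatment, with the number of the array above each point and a line at each group mean. In cortex the 3 DZP arrays lie above the 3 Ctrl arrays, and DZP hippocampus arrays 1 and 2 lie near −0.46, below every other hippocampus array.

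Several marker lists differed between the treatments. All 9 measured markers of striatum were higher in DZP amygdala than in Ctrl amygdala, with a median difference of 0.81 (log2), and their mean ranged from 8.55 to 9.56 in the Ctrl and from 9.17 to 10.29 in the DZP arrays. All 5 measured oligodendrocyte markers were also higher there, with a median difference of 0.46 and ranges of 9.75 to 10.62 in Ctrl and 10.44 to 10.79 in DZP. All 6 measured amygdala markers were lower in DZP amygdala, with a median difference of −0.21. So were all 7 choroid plexus markers, with −0.46, but their mean overlapped, at 5.97 to 8.88 in Ctrl and 5.96 to 6.11 in DZP. In cortex the median striatal difference was −0.04 and in hippocampus −0.16. The mean of the interneuron markers did not overlap between the treatments in cortex (10.93 to 11.12 in Ctrl, 10.69 to 10.72 in DZP) or hippocampus (10.16 to 10.46 in Ctrl, 9.98 to 10.14 in DZP). The mean of the border macrophage markers was higher in DZP without overlap in all 3 regions, as in cortex with 5.92 to 6.02 in Ctrl and 6.17 to 6.38 in DZP. Of these 7 markers, 5 were higher in cortex, 5 in hippocampus, and 6 in amygdala, and 0 were above 8 in Ctrl. The list holds Lyz2, which the study reports as upregulated in cortex and hippocampus. The part of these lists in the results was not tested.

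Over the 3 regions, no exon or junction could be called as used differently in DZP. With limma and Benjamini-Hochberg adjustment over all 254762 probe sets, 0 passed an adjusted p of 0.05 (0% called), and the smallest adjusted p was 0.104. At an unadjusted p under 0.05 there were 22569 probe sets (8.86%), of which 10985 (4.31%) were higher and 11584 (4.55%) lower in DZP. Without DZP hippocampus arrays 1 and 2 there were 17047. A t-test on unlogged values of the index, 9 against 9 arrays with no term for region, gave 0 after adjustment. It gave 13440 at an unadjusted p under 0.05. The study's own t-tests differ, since they take the control gene value of the region as the baseline. With limma the unadjusted share was 7.35% among PSRs and 10.9% among junctions.

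The differences were measured more tightly for PSRs than for junctions. The median half-width of the 95% confidence interval of an index difference was 0.222 (log2) for PSRs and 0.328 for junctions. For 96.4% of the probe sets it was under 0.585, the size of a 1.5-fold change. The median absolute difference was 0.101, 2942 probe sets (1.15%) differed by 1.5-fold or more, and 246 by 2-fold or more. Of the 246, 44 were PSRs and 202 were junctions.

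**Figure D2:**
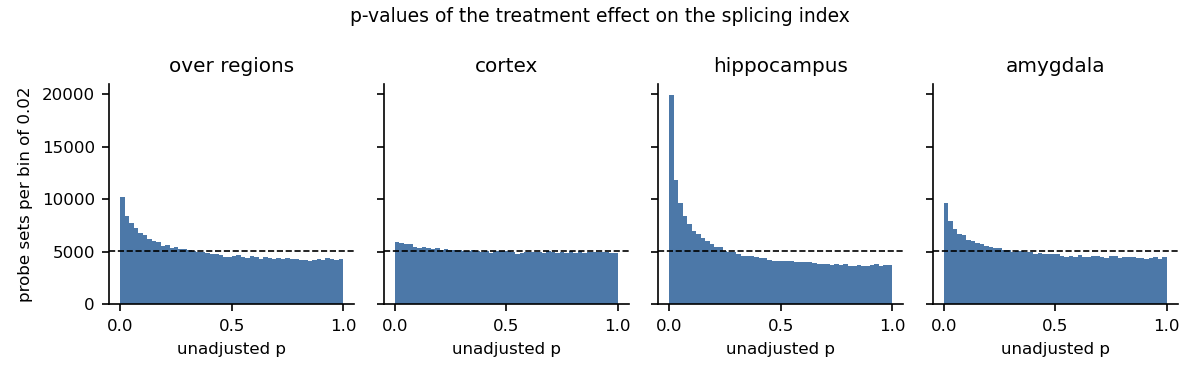
Number of probe sets (y axis, bins of 0.02) by unadjusted p of the treatment effect on the splicing index (x axis), over regions and within each region, with a dashed line at the mean height of the bins. The first bin is tallest in hippocampus and lowest in cortex.

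Among bright probe sets with a higher index in DZP, the 12 with the smallest p in 12 genes had differences from 0.38 to 0.79 and adjusted p-values from 0.20 to 0.314, so none was called. They were 8 PSRs and 4 junctions, and all 12 were higher in all 3 regions. In 9 of them the DZP and Ctrl arrays did not overlap in any region, which held for 90 probe sets in all (0.0353%). They were chosen for this difference, so these counts describe them and support nothing.

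The smallest p among them belonged to a PSR of Dync2h1, the heavy chain of the dynein that carries cargo back along cilia. Its index was 1.28, 1.19, and 1.16 in Ctrl cortex and 1.64, 1.46, and 1.44 in DZP cortex. In hippocampus the Dync2h1 values were 1.05, 0.99, and 0.96 in Ctrl and 1.56, 1.54, and 1.42 in DZP. In amygdala they were 1.37, 1.22, and 1.13 in Ctrl and 1.64, 1.71, and 1.68 in DZP. Every DZP array was above every Ctrl array of its region, by 0.42 on average (SE 0.06, adjusted p = 0.20), and the gene mean differed by −0.02. DZP hippocampus array 3 also lay above the Ctrl arrays, and without arrays 1 and 2 the difference was 0.38.

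Kcnq5 encodes Kv7.5, a subunit of the potassium channels that carry the M-current and restrain firing. The Kcnq5 PSR read −1.78, −2.14, and −2.01 in Ctrl cortex and −1.27, −1.31, and −1.18 in DZP cortex. It read −1.80, −2.34, and −1.64 in Ctrl hippocampus and −1.31, −1.67, and −1.16 in DZP hippocampus, where the groups overlapped. The Ctrl amygdala arrays gave −1.34, −1.40, and −1.48 and the DZP amygdala arrays −0.53, −0.93, and −0.97. The difference over regions was 0.62 (SE 0.10, adjusted p = 0.259). Of the 46 Kcnq5 probe sets, 3 had an unadjusted p under 0.05.

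A PSR of Dgcr8, the RNA-binding partner of Drosha in microRNA processing, was bright relative to its gene, with a mean signal of 13.12 against a gene mean of 8.46. Its index was 4.48 on all 3 Ctrl cortex arrays and 4.72, 5.04, and 4.77 in DZP cortex. In hippocampus it was 4.06, 3.77, and 4.21 in Ctrl and 4.76, 5.51, and 4.58 in DZP. Ctrl amygdala gave 4.43, 4.44, and 4.37 and DZP amygdala 5.06, 5.38, and 5.30. The groups were separate in each region, DZP hippocampus array 2 was the highest of all, and the mean difference of 0.71 (SE 0.12, adjusted p = 0.259) was 0.59 without hippocampus arrays 1 and 2.

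Calr encodes calreticulin, a calcium-binding chaperone of the endoplasmic reticulum. Its PSR was higher in DZP by 0.65 in cortex, 0.88 in hippocampus, and 0.61 in amygdala, and by 0.71 over regions (SE 0.13, adjusted p = 0.265). In hippocampus the highest Ctrl array, at −1.01, just overlapped the lowest DZP array, at −1.02. Mag, a cell adhesion protein of myelin with a long and a short splice form, had a PSR that was higher by 0.47 (SE 0.09, adjusted p = 0.314). Its values ran from 2.42 to 3.29 in the 9 Ctrl arrays and from 2.88 to 3.90 in the 9 DZP arrays, and the groups were separate within each region. Which form the Mag PSR reads is not given in the files.

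The rest of the higher group were junctions of Tanc1, a scaffold of the postsynaptic density (0.79), Specc1l, a protein that links actin and microtubules (0.59), Arid4b, a chromatin protein (0.46), and D15Ertd621e (0.43). PSRs of the imprinted noncoding RNA Rian (0.49), the complex I subunit Ndufb10 (0.41), and Ndrg4 (0.38) completed it. For Tanc1 the groups overlapped in hippocampus, where the highest Ctrl value was −0.57 and the lowest DZP value −0.80. The Tanc1 gene mean was 9.30 to 9.95 in hippocampus, but 7.33 to 7.56 in cortex and 7.36 to 7.80 in amygdala. The gene thus met the minimum of 8 only through hippocampus, and the groups were separate only where it lay under that minimum.

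Among bright probe sets with a lower index in DZP, the 12 leading ones differed by −0.48 to −0.90, with adjusted p-values from 0.259 to 0.314, and none was called. They were 5 PSRs and 7 junctions, all lower in all 3 regions. The groups were wholly separate in all 3 regions for 7 of them, as for 66 probe sets in all (0.0259%). As above, these counts follow from how the probe sets were chosen.

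Paics, an enzyme of purine synthesis, had a PSR with the smallest p of this group. Ctrl cortex arrays read 2.25, 1.97, and 1.86 and DZP cortex arrays 1.51, 1.77, and 1.52. Ctrl hippocampus arrays read 2.11, 2.15, and 1.87 and DZP hippocampus arrays 1.51, 1.16, and 1.52. In amygdala the Paics values were 2.02, 1.64, and 1.47 in Ctrl and 1.14, 1.28, and 1.13 in DZP. All 9 DZP values were below the Ctrl values of their region, by 0.53 on average (index difference −0.53, SE 0.09, adjusted p = 0.259).

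Rimbp2 binds RIM proteins and calcium channels at presynaptic active zones. The index of its PSR differed by −0.47 in cortex, −0.52 in hippocampus, and −0.52 in amygdala, and by −0.50 over regions (SE 0.09, adjusted p = 0.259). The gene mean of Rimbp2 was itself lower in DZP, by −0.26 (adjusted p = 0.0445), and this was called. Of the 51 Rimbp2 probe sets, 6 were higher and 5 lower in index at an unadjusted p under 0.05.

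Homer1 encodes scaffold proteins of excitatory synapses that tie metabotropic glutamate receptors to calcium stores, and its short form is made after neuronal activity. The Homer1 PSR1300006663 read 0.51, 0.62, and 0.68 in Ctrl cortex and 0.08, −0.03, and 0.07 in DZP cortex. Hippocampus gave −0.18, −0.08, and −0.02 in Ctrl and −0.62, −0.93, and −0.50 in DZP. Amygdala gave −0.28, −0.46, and −0.00 in Ctrl and −1.24, −0.83, and −0.40 in DZP. The groups were apart in cortex and hippocampus and overlapped in amygdala, and the differences in the 3 regions were −0.56, −0.59, and −0.58. Over regions the difference was −0.58 (SE 0.10, adjusted p = 0.259).

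The 5 Homer1 PSRs from PSR1300006663 to PSR1300006668 were all lower in DZP, by −0.22 to −0.58 with a median of −0.30, and 4 of them had an unadjusted p under 0.05. This run was picked after its values were seen. Elsewhere in the gene, PSR1300006673 was higher by 0.61 (unadjusted p = 0.00188 in limma, adjusted p = 0.425) and PSR1300006675 by 0.46 (adjusted p = 0.485). Of the 51 Homer1 probe sets, 10 had an unadjusted p under 0.05, 4 higher and 6 lower. The gene mean differed by −0.29 (adjusted p = 0.0534), which missed the threshold. Which PSRs lie in the short or the long forms is not given in the files, so these values are not assigned to a form.

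**Figure D3:**
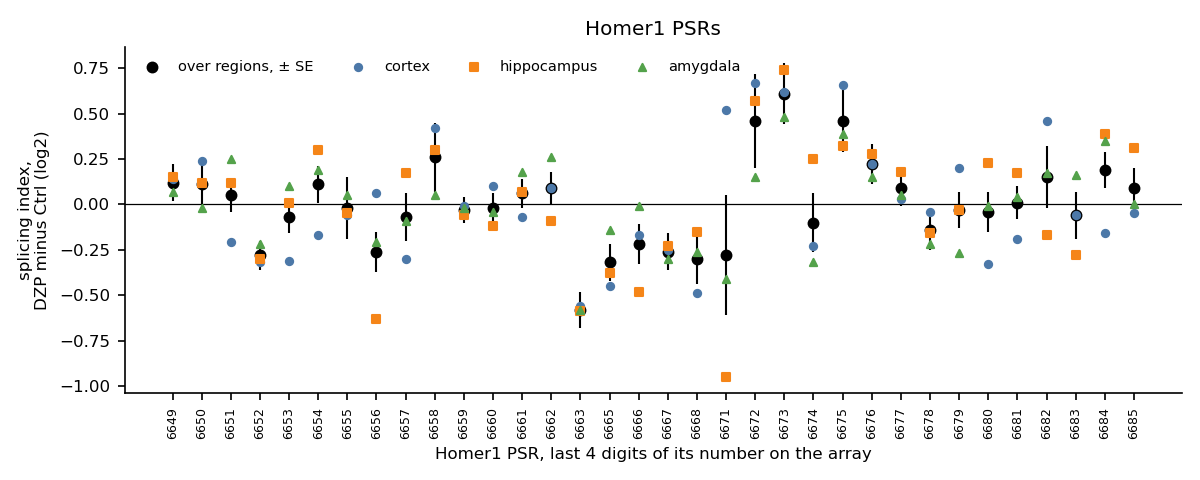
Difference of the splicing index between DZP and Ctrl (log2, y axis) for each PSR of Homer1 in the order of its number on the array (x axis), over regions with its SE (black) and within each region (coloured). The run from PSR1300006663 to PSR1300006668 lies below 0 in all 3 regions, and PSR1300006673 and PSR1300006675 lie above 0.

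The other bright probe sets of the lower group were a junction of Pabpc4, a poly(A)-binding protein (−0.50), one of Fam171a2 (−0.75), and one of Cask, a scaffold of the presynaptic membrane (−0.52). A PSR of Fmnl1, a formin that builds actin filaments, differed by −0.50, and a PSR of Fbxo30, a subunit of ubiquitin ligases, by −0.56. Junctions of Smyd2, a lysine methyltransferase (−0.61), Strada, a pseudokinase that activates LKB1 (−0.90), Supt20, a member of the SAGA complex (−0.74), and Rian (−0.48) followed. Rian stood in both groups, and 26 of its 97 probe sets (26.8%) had an unadjusted p under 0.05, of which 10 were higher and 16 lower. Its gene mean differed by 0.07.

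**Figure D4:**
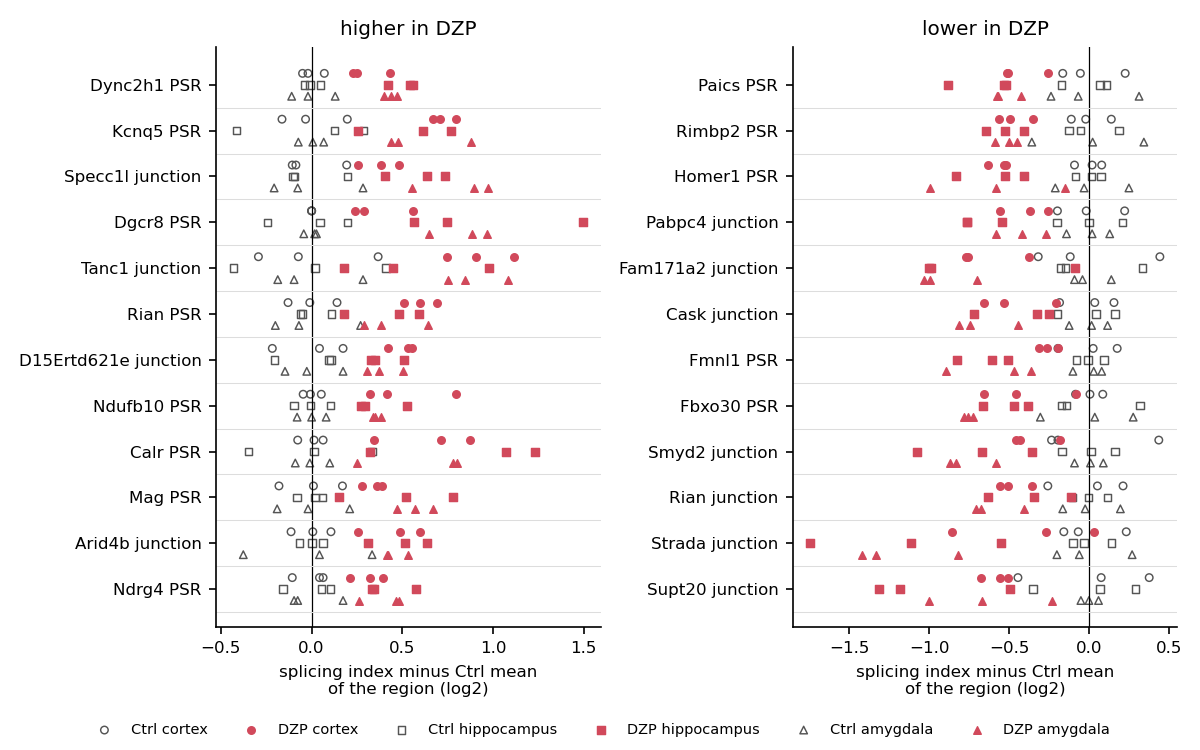
Splicing index of the 24 named bright probe sets on all 18 arrays, minus the mean of the 3 Ctrl arrays of the same region (log2, x axis), with the higher group on the left and the lower group on the right. Open symbols are Ctrl and filled symbols DZP arrays. All 24 means of the DZP arrays lie on 1 side of 0 in every region, and single DZP arrays overlap Ctrl arrays in 8 of the 24 probe sets.

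The smallest p-values of all belonged to dim probe sets. A junction of 4930578G10Rik had an index higher by 0.98 in DZP (SE 0.13, unadjusted p = 8.10e-07 in limma, adjusted p = 0.104), with a mean signal of 4.80. Its gene mean fell by 0.27 (adjusted p = 0.0447). A junction of Slc38a3, a glutamine transporter of astrocytes, was higher by 0.84 (SE 0.11, adjusted p = 0.104) at a mean signal of 3.78, below the mean of the background probe sets. This was the only named probe set that passed the threshold under any other setting tried, and the fit without DZP hippocampus arrays 1 and 2 was one of these (difference 0.96, adjusted p = 0.00688).

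Cacna1g encodes the T-type calcium channel Cav3.1, whose pre-mRNA is spliced in many ways. A PSR of Cacna1g with a mean signal of 6.38 read −3.90, −3.52, and −4.13 in Ctrl cortex and −3.05, −2.86, and −2.54 in DZP cortex. It read −3.65, −3.17, and −3.43 in Ctrl hippocampus and −2.53, −1.99, and −2.93 in DZP hippocampus. The amygdala values were −3.99, −3.22, and −3.86 in Ctrl and −2.05, −2.65, and −2.90 in DZP. The groups were separate in all 3 regions, the gene mean differed by −0.04, and the index differed by 1.04 (SE 0.15, adjusted p = 0.199). Of the 100 Cacna1g probe sets, 7 had an unadjusted p under 0.05.

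A junction of Srsf10, an SR protein that itself acts in splicing, had the largest difference among the named probe sets, −2.33 (SE 0.40, adjusted p = 0.259). Its signal ran from 6.98 to 9.81 in the 9 Ctrl arrays and from 5.07 to 7.24 in the 9 DZP arrays. The Ctrl arrays spread widely, from 0.20 to −2.59 in hippocampus alone, and the groups overlapped in amygdala. Only 2 of the 32 Srsf10 probe sets had an unadjusted p under 0.05, and the gene mean differed by −0.05. Junctions of Slc7a10, an amino acid transporter (−0.83), and Itpk1, an inositol phosphate kinase (−0.66), were the other dim probe sets named.

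Within the regions taken singly, 0 probe sets were called in cortex (0%), 88 in hippocampus (0.0345%), and 1 in amygdala (0.000393%). At an unadjusted p under 0.05 there were 14536 (5.71%), 36801 (14.4%), and 21168 (8.31%). The hippocampus count was 24268 without DZP hippocampus array 2. The difference of the effect between regions was tested as an interaction, with 0 called (0%), a smallest adjusted p of 0.125, and 27246 (10.7%) at an unadjusted p under 0.05. Across all probe sets, the index differences of hippocampus and amygdala correlated with r = 0.249, those of cortex and hippocampus with r = −0.179, and those of cortex and amygdala with r = −0.033. Without DZP hippocampus arrays 1 and 2, which leaves array 3 alone, the r with hippocampus was 0.049 for amygdala and −0.066 for cortex. The part of the smaller number of arrays in this was not tested. The sign was the same in all 3 regions for 63973 probe sets (25.1%), and for 61663 without those arrays. These r values are across probe sets of shared arrays and genes, and the regions share mice.

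The 88 calls in hippocampus depended on which arrays were in the fit. They were 29 higher and 59 lower in DZP, in 87 genes, 62 of them junctions and 26 PSRs, with a median absolute difference of 1.27 and a range of 0.74 to 3.49. Without DZP hippocampus arrays 1 and 2 only array 3 stood for DZP in hippocampus, so that count is not given. Without DZP hippocampus array 1 or array 2 alone there was 1 call each, and without array 3, which leaves arrays 1 and 2, there were 8410. Leaving out a Ctrl hippocampus array gave 0, 1, and 0 calls. Arrays of other regions share the estimate of the spread. Without Ctrl cortex arrays 1, 2, and 3 the count was 5, 0, and 7, and without the DZP cortex arrays 11, 7, and 0. Without Ctrl amygdala arrays 1, 2, and 3 it was 5, 29, and 47, and without the DZP amygdala arrays 37, 0, and 110. With the mean junction index of each array as a covariate, an alternative chosen after seeing the data, 0 hippocampus calls were left.

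Among the 88, picked here after their values were seen, a PSR of Ntng1, the axonal adhesion protein netrin-G1, read 7.08, 6.74, and 6.75 in Ctrl hippocampus and 4.64, 4.41, and 5.05 in DZP hippocampus. In cortex and amygdala the same PSR lay between 6.60 and 7.76 in both treatments. The hippocampal difference was −2.15 (adjusted p = 0.0317 in limma), and the test of the difference between regions gave an adjusted p of 0.163.

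A junction of Sorcs1, a sorting receptor of neurons, read −0.07, 0.38, and 0.05 in Ctrl hippocampus and −1.72, −1.64, and −0.92 in DZP hippocampus, a difference of −1.55 (adjusted p = 0.0317 in limma). The Sorcs1 junction also differed by −0.19 in cortex and −0.41 in amygdala, without overlap of the groups in either. A junction of G3bp1, a core protein of stress granules, was higher in DZP hippocampus, with 1.80, 1.54, and 1.74 in Ctrl against 2.78, 2.93, and 3.04 in DZP. Its difference was 1.23 in hippocampus, −0.45 in cortex, and −0.08 in amygdala. The largest difference, −3.49, belonged to a junction of Cacna2d1, an auxiliary subunit of calcium channels, which differed by 0.56 in cortex and −1.74 in amygdala. Over the 88 probe sets, the median distance from the Ctrl mean was 1.26, 1.37, and 1.11 in DZP hippocampus arrays 1, 2, and 3. The calls were made on these same arrays, so this describes them and supports nothing. Of the 88, 70 (79.5%) had the same sign in amygdala and 22 in cortex, where over all probe sets the shares were 57.9% and 43.3%. Those shares were 51.6% and 47.8% without arrays 1 and 2.

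The single amygdala call was a dim junction of Plxnb2, a receptor for semaphorins, with a mean signal of 7.26. It read −0.94, −0.92, and −0.80 in Ctrl amygdala and −3.13, −3.51, and −3.38 in DZP amygdala, a difference of −2.45 (adjusted p = 0.0296 in limma). In hippocampus it was also lower in DZP, by −1.30, while in cortex it was higher, by 0.77. The call was lost in 15 of the 18 fits that left out 1 array and was kept without Ctrl cortex array 2 and without DZP hippocampus array 2 or 3. Without DZP amygdala array 3, 4 other probe sets were called, 2 PSRs of Pde10a and junctions of Rgs9 and Fbxw2. Pde10a and Rgs9 are genes of striatal neurons and are themselves on the list of striatal markers. That list was higher in DZP amygdala by the median of 0.81 given above, and its part in these calls was not tested.

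Between cortex, hippocampus, and amygdala, 50446 probe sets (19.8%) were called with limma over the same 18 arrays.

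A few gene means passed the test. Of 6822 gene means of PSRs, 20 (0.293%) passed an adjusted p of 0.05, 10 higher and 10 lower, and 937 (13.7%) had an unadjusted p under 0.05. The activity-regulated genes Nr4a3, a nuclear receptor (−0.57), Egr1, a zinc finger transcription factor (−0.54), and Nptx2, a secreted pentraxin of excitatory synapses (−0.48), fell. Podxl, a sialomucin of vessel walls (0.50, SE 0.06), Fn1, the matrix protein fibronectin (0.47), and Flt1, a receptor for VEGF (0.22), rose, as did the transcription factor Tef (0.29). All 6 measured endothelial markers, a list that itself holds Flt1, were higher in DZP cortex and in DZP hippocampus. The median differences were 0.14 and 0.16. In amygdala 3 of 6 were higher, with a median of 0.07. All 7 pericyte and fibroblast markers were higher in DZP hippocampus, with a median difference of 0.19, but 2 of 7 in cortex, with −0.05. The part of both lists in the vascular and matrix genes was not tested. The count of 20 became 2 with the median of PSRs as the gene level, and 4, of which 1 was higher and 3 lower, when the 3 regions of a number were averaged for a test of 3 against 3. Single arrays also moved it, to 116 without DZP hippocampus array 1, to 34 without Ctrl hippocampus array 3, to 32 without DZP cortex array 1, and to 10, 11, or 12 without Ctrl cortex 3, DZP cortex 3, Ctrl hippocampus 2, DZP hippocampus 2, DZP hippocampus 3, or Ctrl amygdala 1.

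Genes whose mean was called also had more probe sets with a low p on the index. Of their 795 probe sets, 167 had an unadjusted p under 0.05, against 22402 of 253967 (8.82%) in the other genes. Among their dim probe sets the share was 29.5%, and 89.5% of those moved opposite to the gene mean. Among their bright probe sets it was 18.3%, with 33.6% opposite. In the other genes 61.6% of such dim and 49.9% of such bright probe sets moved opposite. Of all dim probe sets of the called genes, whatever their p, 76.2% did. The index subtracts the gene mean, so a probe set that stays flat moves opposite by construction. For Egr1, 8 of 9 probe sets had an unadjusted p under 0.05. The Egr1 PSRs with mean signals of 3.91, 5.93, and 7.92 were higher in index, by 0.59, 0.33, and 0.57, and those with 8.87, 12.23, and 13.69 were lower, by −0.74, −0.28, and −0.33.

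Lcn2, a lipocalin that binds iron-carrying siderophores, stayed outside the 6822 genes with a mean of 7.39. Of its 15 PSRs, the 8 with a Ctrl mean of 6 or more had signals higher in DZP by 1.89 to 4.20 (log2) over regions, and the 7 dimmer ones differed by −0.14 to 0.40. The Lcn2 gene mean differed by 1.95 in cortex, 2.08 in hippocampus, and 1.85 in amygdala. After subtraction, the 7 dimmer PSRs had index differences of −1.56 to −2.11 while their signals differed by at most 0.40 over regions. The paper places most of these dimmer PSRs in introns and reports them as not altered by DZP. The gene mean averages all 15 PSRs, so it includes them. The 8 brighter ones had differences of −0.08 to 2.24.

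**Figure D5:**
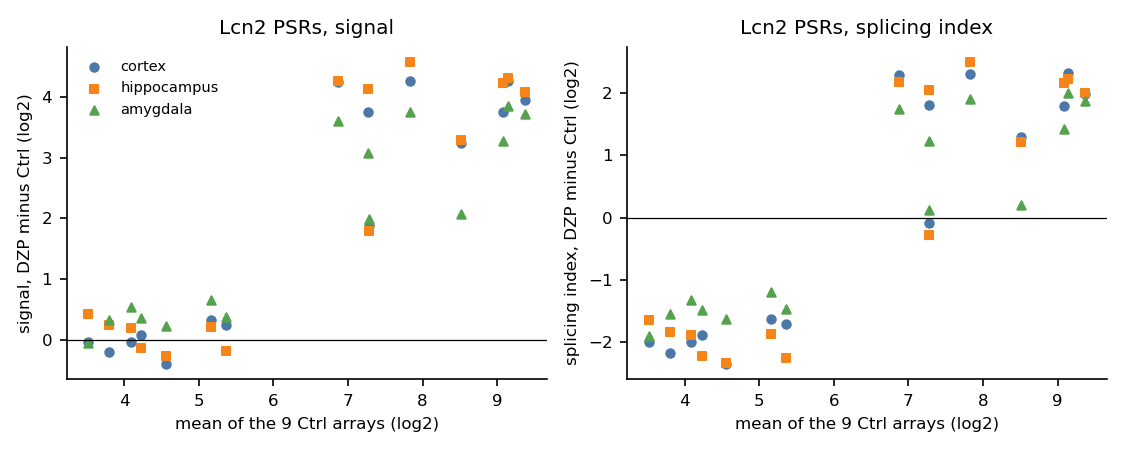
The 15 PSRs of Lcn2 by their mean signal in the 9 Ctrl arrays (x axis, log2), with the difference of the signal (left) and of the splicing index (right) between DZP and Ctrl in each region (y axes, log2). In single regions, PSRs under a Ctrl mean of 6 lie between −0.40 and 0.66 for the signal and between −2.35 and −1.19 for the index.

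Gene lists were then read against the 8.86% of all probe sets, and 0 probe sets were called in any of them over regions. GABA-A receptor subunits, the targets of DZP, had 8 of 19 genes tested. Of their 206 probe sets, 10 (4.85%) had an unadjusted p under 0.05, 7 higher and 3 lower. The lowest adjusted p was 0.422, for a Gabrg1 junction that was higher by 0.75. Gabrb2, a beta subunit, had 4 of 34 probe sets under 0.05, the first of them a PSR higher by 0.17 (adjusted p = 0.491). Gabra2, Gabra4, and Gabrb1 had none of 30, 23, and 22.

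Ionotropic glutamate receptors had 63 of 619 probe sets under 0.05 (10.2%) in 14 of 18 genes. Among them a junction of Gria1 differed by −0.28 (adjusted p = 0.431), a junction of Grin1, the obligatory NMDA receptor subunit, by −0.58, and a PSR of Grin2b by 0.26. Synaptic adhesion genes had 133 of 1250 (10.6%), led by a PSR of L1cam that was higher by 0.43 (adjusted p = 0.327). Voltage-gated channels had 201 of 2018 (9.96%), with the Cacna1g and Kcnq5 PSRs in front. CaM kinases and calcineurin had 41 of 583 (7.03%), and genes with known microexons, very short exons of neurons, had 289 of 3123 (9.25%).

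Genes that act in splicing made up a pair of the lists. Neuronal splicing regulators had 129 of 1099 probe sets under 0.05 (11.7%), among them junctions of Rbfox2 (−0.43, adjusted p = 0.405), Srrm4, the regulator of microexons (0.56, adjusted p = 0.43), and Celf2 (−0.46). SR proteins, CLK kinases and cold-inducible RNA-binding proteins had 159 of 1479 (10.8%). Within that list Clk1, a kinase of SR proteins whose own splicing responds to its activity, had 17 of 47 probe sets (36.2%), 11 higher and 6 lower, with a PSR higher by 0.37 in front (adjusted p = 0.413). Tra2b had 7 of 33, with a PSR lower by −0.51 (adjusted p = 0.413).

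Activity-regulated genes had the highest share of the lists with more than 9 probe sets, 102 of 609 (16.7%), 48 higher and 54 lower. Without the 3 genes of the list whose mean was called it was 82 of 568 (14.4%), and without Egr1 it was 15.7%. In Nr4a2 14 of 32 probe sets had an unadjusted p under 0.05, in Vgf 5 of 12, and in Pde4b 13 of 67. The junction of Ptgs2, the inducible cyclooxygenase, with the smallest p was higher by 0.93 (adjusted p = 0.20) at a mean signal of 3.40. Glucocorticoid-induced and clock genes had 85 of 794 (10.7%).

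Myelin genes with known isoforms had 24 of 394 probe sets under 0.05 (6.09%), and the Mag PSR had the smallest p of the list. Of the genes that the study reports as shared between regions, a list chosen on these samples, only Fabp7, a fatty acid-binding protein of astrocytes, passed the rule. It had 3 of 9 probe sets under 0.05, with a PSR higher by 0.54 (adjusted p = 0.431).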

How the data were processed

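Total RNA of 3 mice per treatment was measured on Affymetrix Mouse Transcriptome Arrays 1.0. The authors deposited log2 signal intensities per PSR and junction, made with Affymetrix Expression Console 1.4.1 per the submitters' processing notes, and the summarisation and normalization between arrays are not given in the sources used here. Any compression of low signals in those steps would carry over to the index. From these values the gene mean of PSRs and the splicing index were computed. Symbols came from the platform annotation, and of 6822 gene symbols 6501 matched RefSeq symbols of GRCm38.p6 and 321 a synonym only. Control probe sets (6607) were left out, and 724 probe sets repeat the values of another. The 18 gene-level samples, whose titles and replicate numbers match those of the exon-level arrays, served 1 alternative only. No coordinates were used.

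All fits used limma 3.58.1, run under R 4.3.3. Input was read by the package data.table, version 1.17.8. The main fit had region and treatment as terms on all 18 arrays and also gave the differences between regions. Interactions and effects within regions came from a fit with the interaction of both terms (6 groups). Benjamini-Hochberg adjustment ran over all probe sets, or over all gene means, and the threshold was 0.05. The scripts were tested on simulated data. Arrays limit the precision by their number.

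The named probe sets are, per direction, the 12 bright and 3 dim ones with the smallest p, 1 per gene, and genes of the lists are named from their probe set with the smallest p. The members and lists were chosen with earlier results of these data known. Alternatives covered the gene level, the filters, centring, weights, blocks, a t-test on unlogged values and each array left out.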

Additional observations from a re-analysis of the deposited data

Results flagged for a closer look

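The mean index of the junctions was flagged because the treatment difference ran opposite ways in 2 regions. All 3 DZP cortex arrays lay above the Ctrl cortex arrays, with a difference of 0.042, and all 3 DZP hippocampus arrays lay below the Ctrl hippocampus arrays, with a difference of −0.074. The difference between these differences was 0.116, with a two-sided exact permutation p of 0.005 over 400 arrangements of the labels within regions, the smallest p they can give. The measure and the pair of regions were picked after the values were seen. In DZP hippocampus array 3 the value was −0.013 from the Ctrl mean, so most of the hippocampal difference came from arrays 1 and 2. In amygdala the difference was −0.022 and the groups overlapped. Over regions it was −0.018 (exact permutation p = 0.32, 8000 arrangements, again made as if the regions were independent).

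Of 60 sets of 9 arrays, 1 per treatment for each named probe set with the region means removed, 0 held an array farther from the rest than Dixon's 95% critical value allows. That value is meant for 9 independent values, which these are not once the region means are removed. The probe sets were also chosen for small p, which favours a small spread. The count of 0 therefore does not show that outlying arrays are absent.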

How the results depend on the processing

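The count over regions was 0 in the main analysis. It became 1, each time the Slc38a3 junction, with the median of PSRs as the gene level, with array weights, and without DZP hippocampus arrays 1 and 2. With no minimum for the gene mean it became 4 (Crhbp, Gm21188, Selp, and Lcn2). The study reports Crhbp, Selp, and Lcn2 as changed in level, and an index can move with its gene. The Lcn2 PSR differed by 3.92 in signal and 1.95 in index, and flat dimmer PSRs enter its gene mean. The part of the gene level in these calls was not tested, so they are not read as changed exon usage. The interaction gave 4 calls with the median and 1 with PSRs only. Cortex gave 1 call with PSRs only and 1 with the mean junction index as a covariate. The 88 hippocampus calls became 11 with the median, 366 for a probe set mean of at least 7, and 173 for a gene mean of at least 9. With PSRs only there were 41. They fell to 0 with an estimated slope on the gene mean, with array weights, and with the junction covariate. The amygdala call was lost (0) with the slope, with no minimum, with a gene mean of at least 9, and with PSRs only. Between regions the 50446 calls became 8007 with the slope, 84224 with no minimum, 30171 with PSRs only, and 26868 with the junction covariate. The 20 gene means became 2 with the median, 38 with no minimum, 31 with a minimum of 9, and 40 with the junction covariate. With the gene-level samples there were 33 of 6209 genes, and without arrays 1 and 2 there were 66 (10 higher, 56 lower). Centring on array medians gave 55 (36 higher and 19 lower against 10 and 10), and array weights gave 108 (32 higher, 76 lower). The junction covariate and the fit without arrays 1 and 2 were chosen after seeing the data.

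At an unadjusted p under 0.05, the t-test on unlogged values gave 13440 probe sets over regions, where it had no term for region. It gave 17571 in cortex, 24295 in hippocampus, and 16882 in amygdala, and 0 in each case after adjustment. Leaving out each array gave 0 to 1 calls over regions, 0 to 1191 for the interaction, 0 to 0 in cortex, 0 to 8410 in hippocampus, 0 to 4 in amygdala, 40963 to 53671 between regions, and 10 to 116 gene means. The count of 1191 came without DZP hippocampus array 3. Same-numbered arrays of different regions and the same treatment did not deviate together (r from −0.07 to 0.08). Neither did differently numbered ones (r from −0.12 to 0.09). Some of these pairs must share a mouse, so this measure cannot show whether the numbers mark mice. With the number as a fixed block, hippocampus had 13 calls. With treatment and number as a random block the gene means had 50, and averaging the regions for a 3 against 3 block gave 4. The cause of these moves was not tested. All 988 values of the 30 named probe sets under alternatives kept their direction, which their choice by small p on the same arrays all but fixes, and 4, all of Slc38a3, passed the threshold. Dim probe sets near the background limit what can be read from the index.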
